A study of Mus musculus with 14 samples.

Results

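The genes described here encode the subunits of the AMPA and kainate receptors, the ionotropic glutamate receptors Gria1 to Gria4 and Grik1 to Grik5. They were chosen by gene name, and all 9 were found once among the 26570 genes of the count table for untrained mice (basal table) and once among the 25933 genes of the table for the learning experiment. RNA was sequenced from the dorsal hippocampus of male C57BL6 mice aged 8 months, in 14 libraries that the labels number as replicates within 6 groups. The basal experiment held 3 wild-type libraries (WT) and 2 libraries of THY-Tau22 mice, neither treated nor trained. THY-Tau22 mice are heterozygous, on a C57BL6/J background per the study's methods, and carry a mutated human Tau protein under a Thy1.2 promoter, which drives the transgene in neurons, so every THY-Tau22 group below carries that transgene in a single line. The learning experiment held wild-type mice injected with saline that stayed in their home cage (WT VEH_HC, 3 libraries) or were trained in the Morris water maze (WT VEH, 2 libraries), and trained THY-Tau22 mice injected with the carbon nanosphere vehicle CSP (TAU VEH, 2 libraries) or with CSP carrying TTK21, an activator of the acetyltransferases CBP and p300 (TAU MOL, 2 libraries). Trained mice were killed after the last trial of a spatial acquisition phase. The authors left 3 mice of 1 litter out of this experiment after seeing their libraries. Trained THY-Tau22 and trained WT mice differed in genotype and in injection, saline against CSP, and these cannot be told apart. The labels do not say how the libraries relate to litters or days, so the tests measure the spread between these libraries.

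AMPA receptors are tetramers of the subunits GluA1 to GluA4, encoded by Gria1 to Gria4, and carry most of the fast excitatory current at hippocampal synapses. Gria1 and Gria2 are the main subunit genes of the pyramidal cells, and GluA2 that has been edited at the Q/R site of the pore keeps calcium out of the channel. Kainate receptors are built from GluK1 to GluK3 (Grik1 to Grik3), which bind kainate with low affinity and can form channels without the others, and from GluK4 and GluK5 (Grik4 and Grik5), which bind it with high affinity and need a partner from the first set. In the hippocampus kainate receptors are best known from the synapses of dentate gyrus mossy fibres onto CA3 pyramidal cells, where GluK2, GluK4 and GluK5 meet. Auxiliary proteins such as the TARPs (Cacng genes), cornichons and Neto proteins travel with these receptors and set their gating and their place in the membrane.

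The Q/R site, named after the change that RNA editing makes there, lies in the pore, and its codon can be read in the coding sequence of all 9 genes. The 30 coding bases around it are given from the GENCODE transcripts of mm9, 5′ to 3′ on the coding strand, with the codon of the site in capitals.
Gria1: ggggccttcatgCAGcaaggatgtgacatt
Gria2: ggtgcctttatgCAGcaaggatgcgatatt
Gria3: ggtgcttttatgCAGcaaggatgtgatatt
Gria4: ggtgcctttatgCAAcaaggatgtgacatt
Grik1: ggagctctcatgCAGcaaggatcggagctg
Grik2: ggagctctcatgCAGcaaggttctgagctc
Grik3: ggctccctgatgCAGcaaggatctgaactg
Grik4: ggaggcttcatgCAGcaaggctccactatt
Grik5: ggtggcttcatgCAGcagggctcggagatc
The codon is CAA in Gria4 and CAG in the other genes, and editing of the RNA is known to change it in Gria2, Grik1 and Grik2. In mm9 the stretch lies at chr11:57056584-57056613 in Gria1, at chr3:80510818-80510847 on the minus strand in Gria2, at chrX:38963430-38963459 in Gria3 and at chr9:4464122-4464151 on the minus strand in Gria4. In Grik4 it lies at chr9:42355691-42355720 and in Grik5 at chr7:25807501-25807530, both on the minus strand. For Grik1, Grik2 and Grik3 the 30 bases were not found as a single run in the genome, and no position is given. Counts per gene hold no information on editing, so the values below are amounts of RNA, edited and unedited together.

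The libraries held from 28639121 to 37681155 counts in the basal experiment and from 24693713 to 52180305 in the learning experiment, and every receptor gene had at least 150 counts in every library. The dependence of the counts on GC content differed between libraries. Spearman's rho over genes between exon GC content and a library's log2 deviation from its experiment's mean lay between 0.085 and 0.45 in the 5 WT libraries of the learning experiment and between -0.62 and -0.40 in its 4 THY-Tau22 libraries. In the basal experiment rho lay between 0.067 and 0.48 in 4 libraries and was -0.60 in THY-Tau22 replicate 2, which stands apart, so the basal fold changes are given with and without it. Markers of the choroid plexus, a tissue next to the hippocampus, also differed, with a summed level over 14 markers of 1594 and 2457 CPM (counts scaled to a common library total) in the WT VEH libraries, from 79.8 to 238 CPM in WT VEH_HC, from 241 to 288 CPM in TAU VEH and from 717 to 785 CPM in TAU MOL. The markers of CA1, CA3, dentate gyrus, neurons and glia were above 0 in every group. In such bulk tissue, fewer cells of a type and less RNA per cell cannot be told apart.

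Gria1 was the most abundant of the 9 genes in every group when counts were divided by the length of the exons (CPM per kb, the scale on which genes are compared). Gria1 (ENSMUSG00000020524, chr11:56824889-57143746, plus strand) reached 161 ± 1.49 CPM per kb in WT mice (SD, n = 3) and between 158 and 179 CPM per kb in the means of the other groups. Grik5 (ENSMUSG00000003378, chr7:25794872-25857388, minus strand), the high-affinity kainate subunit, ranked next in the means of all 6 groups, with 85.1 ± 8.51 CPM per kb in WT mice (SD, n = 3). Gria2 (ENSMUSG00000033981, chr3:80488858-80606713, minus strand) ranked after it, with 62.8 ± 0.945 CPM per kb in WT mice (SD, n = 3). In THY-Tau22 mice of the basal experiment the libraries of Grik5 and Gria2 overlapped on this scale, and in the other 5 groups those neighbours were apart. Without the division by length, Gria2 had more CPM than Grik5 in the means of WT (437 against 326), THY-Tau22, TAU VEH and TAU MOL. It had fewer in WT VEH (399 against 498) and WT VEH_HC (331 against 511). The length is that of all annotated exons, which may differ from the transcripts expressed here. Grik5 also differed between the untrained WT groups of the tables, with 133 ± 11.6 CPM per kb in WT VEH_HC (SD, n = 3), but the tables were normalized separately and this pair was not tested.

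Gria3 and Grik4 followed at a lower level. Gria3 (ENSMUSG00000001986, chrX:38754031-39031778, plus strand), the X-linked AMPA subunit, had between 13.4 and 16.4 CPM per kb in the group means. Grik4 (ENSMUSG00000032017, chr9:42326218-42752576, minus strand), the other high-affinity kainate subunit, had between 11.2 and 17.6 CPM per kb. Their libraries overlapped in WT and in WT VEH. Grik4 was above Gria3 in WT VEH_HC and below it in the THY-Tau22 groups, in each case without overlap.

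The lowest levels were those of Gria4, Grik3, Grik2 and Grik1. Gria4 (ENSMUSG00000025892, chr9:4417899-4796234, minus strand), best known from interneurons, had between 4.41 and 7.27 CPM per kb in the group means. Grik3 (ENSMUSG00000001985, chr4:125167944-125391417, plus strand), a low-affinity subunit of presynaptic receptors, had between 4.93 and 7.88 CPM per kb. Grik2 (ENSMUSG00000056073, chr10:48819266-49508572, minus strand), the main low-affinity partner at mossy fibre synapses, had between 3.46 and 5.10 CPM per kb. Grik1 (ENSMUSG00000022935, chr16:87896441-88289947, minus strand), a subunit known from interneurons, was lowest in every group, with between 1.94 and 2.68 CPM per kb. Gria4 and Grik3 changed places between groups, and Grik2 ranked below both in every group. At least 1 pair of these 3 neighbours overlapped in 4 of the 6 groups, the exceptions being WT VEH_HC and TAU MOL. Small annotated miRNA genes lie within the exons of Gria2, Gria3 and Gria4 and share 29, 91 and 16 bases with them, and no other annotated gene shares an exon base with any of the 9.

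**Figure D1:**
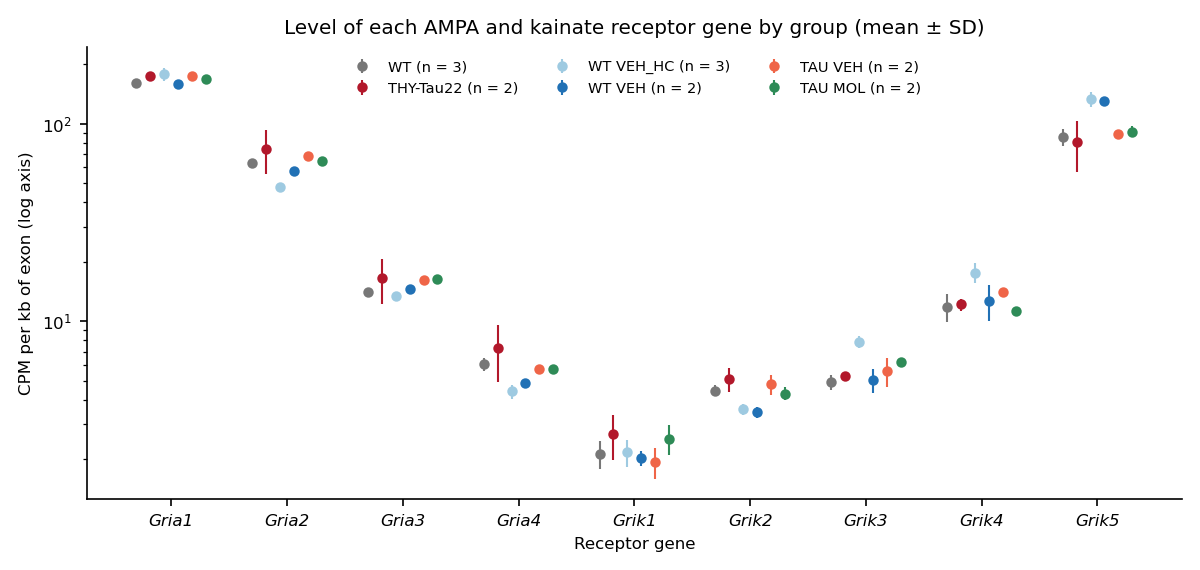
Level of each receptor gene in CPM per kb of exon (log axis) in the 6 groups, with points for group means and bars for the SD. Gria1 sits between 158 and 179, Grik5 and Gria2 come next, and Grik1 lies lowest at about 2 CPM per kb.

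Training was examined by comparing trained with home-cage WT mice, both given saline. Grik3 and Grik4 fell and Gria2 rose, and the other 6 receptor genes did not pass the limits for differential expression, an adjusted p under 0.05 (quasi-likelihood test of edgeR, Benjamini-Hochberg adjustment) together with an absolute log2 fold change above 0.2. These 3 of 9 genes compare with 8.40% of the 16820 genes tested in this comparison (5.35% higher and 3.05% lower). The libraries of the groups did not overlap for 6 of the 9 genes, as was the case for 43.8% of all genes.

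Gria2 had 324, 323 and 346 CPM in the WT VEH_HC libraries and 401 and 396 CPM in the WT VEH libraries. Both trained libraries lay above all home-cage libraries. The group means were 331 ± 13.1 CPM (SD, n = 3) and 399 ± 3.81 CPM (SD, n = 2), and the log2 fold change with training was 0.27 (standard error, SE, 0.06, adjusted p = 0.0251 in edgeR's quasi-likelihood test). Gria2 has the lowest exon GC content of the 9 genes, 38.1%, and with a GC and length correction of each library the log2 fold change was 0.09 (adjusted p = 0.376 in edgeR). Its adjusted p lay between 0.00261 and 0.986 over 10 alternatives in edgeR and DESeq2, and the call was also lost when either WT VEH library (adjusted p = 0.225 and 0.0910 in edgeR) or WT VEH_HC replicate 1 (0.0610) was left out.

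Grik3 had 66.5, 76.4 and 69.3 CPM in the WT VEH_HC libraries and 49.7 and 40.8 CPM in the WT VEH libraries. All home-cage libraries lay above both trained ones. The means were 70.7 ± 5.08 CPM (SD, n = 3) and 45.3 ± 6.26 CPM (SD, n = 2), so the level with training was 0.640 of that in the home cage, a log2 fold change of -0.64 (SE 0.11, adjusted p = 0.00906 in edgeR's quasi-likelihood test). With the GC and length correction the log2 fold change was -0.52 (adjusted p = 0.0229 in edgeR), and 4.60% of all genes were differentially expressed under that correction. The call was lost when WT VEH replicate 2 was left out (log2 fold change -0.51, adjusted p = 0.0750 in edgeR), and its adjusted p lay between 1.36e-12 and 0.976 over 10 alternatives.

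Grik4 had 101, 117 and 93.3 CPM in the WT VEH_HC libraries and 63.7 and 85.9 CPM in the WT VEH libraries. The groups did not overlap, but WT VEH replicate 2 lay close to the lowest home-cage library. The means were 104 ± 12.1 CPM (SD, n = 3) and 74.8 ± 15.7 CPM (SD, n = 2), with a log2 fold change of -0.47 (SE 0.12, adjusted p = 0.0364 in edgeR's quasi-likelihood test). The corrected value was -0.40 (adjusted p = 0.0629 in edgeR, and from 2.17e-07 to 0.976 over 10 alternatives). The call was lost when any 1 of 7 of the 9 learning libraries was left out, the exceptions being WT VEH replicate 2 and WT VEH_HC replicate 3, with the largest loss without WT VEH replicate 1 (log2 fold change -0.27, adjusted p = 0.310 in edgeR).

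The remaining genes moved less with training. Gria1 had 1169, 1057 and 1010 CPM in WT VEH_HC and 934 and 977 CPM in WT VEH, 2 groups without overlap, and its log2 fold change was -0.18 (95% confidence interval from -0.32 to -0.03, adjusted p = 0.123 in edgeR). It passed without WT VEH_HC replicate 3 (adjusted p = 0.0438 in edgeR), where 2798 of 16735 genes passed against 1413 with every library. Gria1 also passed with the replicate block, where 3000 genes passed. Its adjusted p lay between 0.049997 and 0.976 over 10 alternatives in edgeR and DESeq2. Gria3 and Gria4 had log2 fold changes of 0.12 and 0.14, again without overlap of the libraries, and Grik1, Grik2 and Grik5 had values of -0.09, -0.05 and -0.04 with overlapping libraries. For Grik5 the 95% confidence interval ran from -0.20 to 0.12.

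Markers of other cells also moved. All 14 choroid plexus markers, 2 of 6 interneuron markers (Pvalb and Vip) and 1 of 6 microglia markers were higher in WT VEH than in WT VEH_HC, 2 of 7 dentate gyrus markers (Glis3 and Trpc6) were lower, and 0 passed in edgeR in the lists for CA1, CA3, all neurons, thalamus, neocortex, oligodendrocytes and their precursors, astrocytes and endothelium. Of these lists DESeq2 called 2 of 6 astrocyte and 1 of 6 neocortex markers higher, and 1 of 5 markers of all neurons and 1 of 4 of oligodendrocyte precursors lower. The summed level of the dentate gyrus markers ran from 339 to 441 CPM in WT VEH_HC and from 338 to 339 CPM in WT VEH. With the choroid plexus score of each library as a covariate, 0 of the 9 receptor genes and 0 of all 16820 genes passed in edgeR, 742 of them at an unadjusted p under 0.05, so nothing particular to the receptor genes can be read from it. The log2 fold change of Grik3 was then -0.60 and that of Grik4 turned to 0.46 (adjusted p = 0.976 in edgeR for both).

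**Figure D2:**
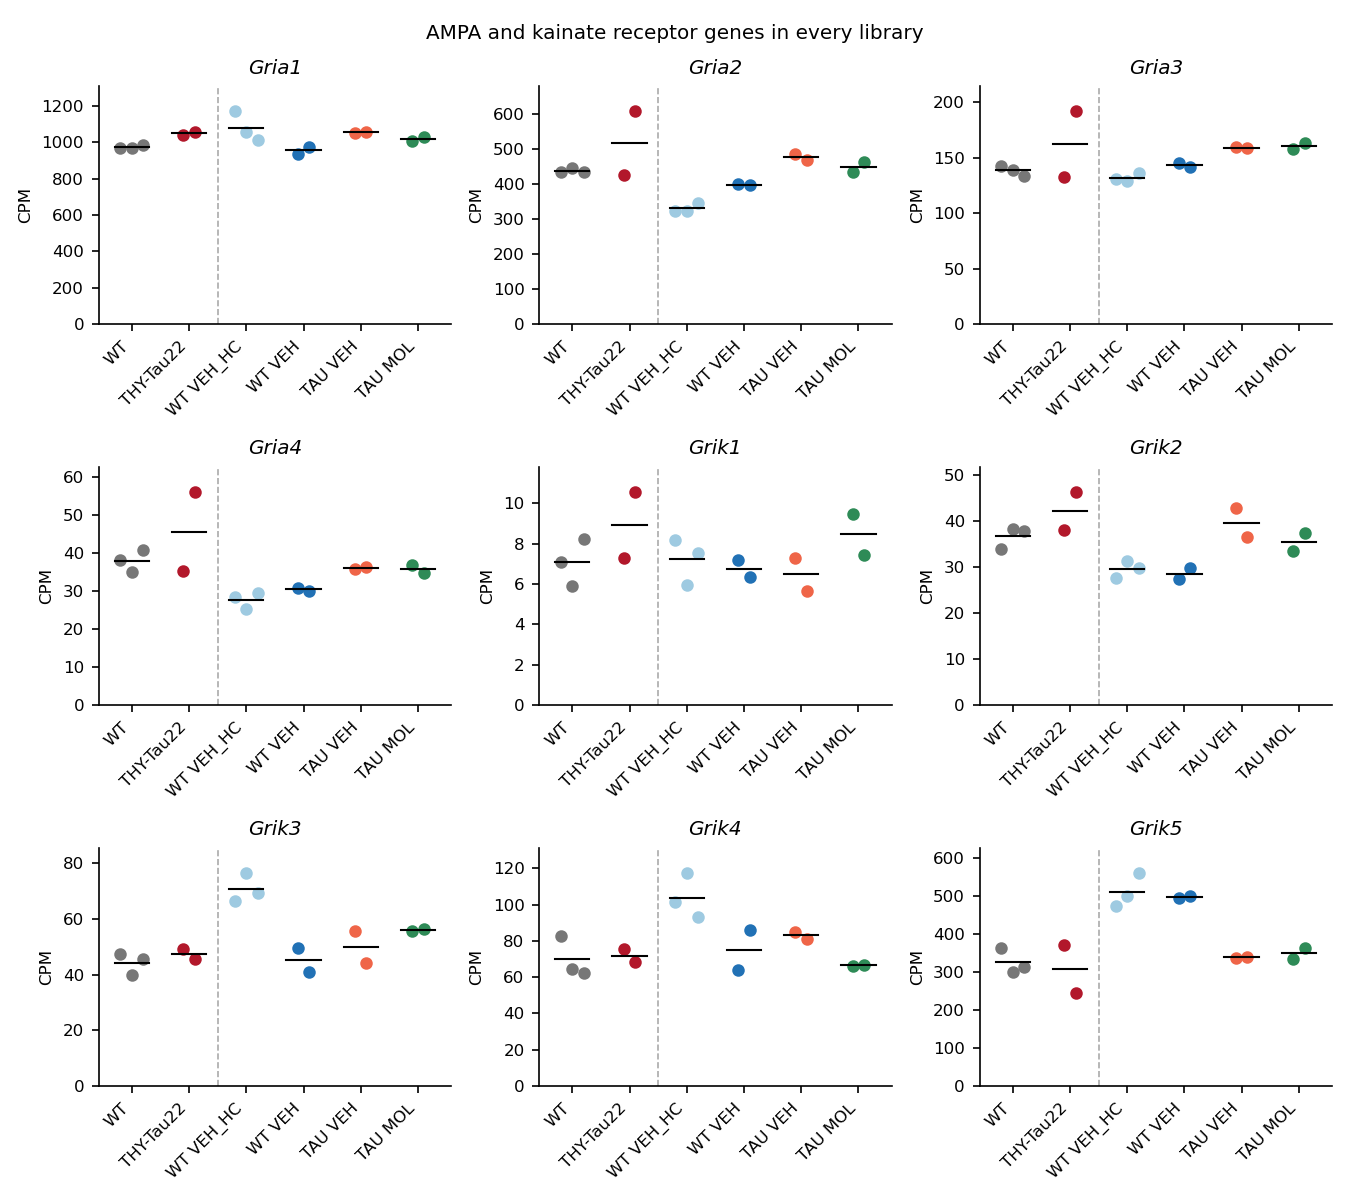
CPM of each receptor gene in every library (points, linear axis from 0) with the group mean as a line, and a dashed line between the separately normalized basal and learning tables. Grik3 is highest in the 3 WT VEH_HC libraries (66.5 to 76.4 CPM), Grik5 is near 500 CPM in both trained and home-cage WT groups and between 334 and 364 CPM in the 4 trained THY-Tau22 libraries, and THY-Tau22 replicate 2 lies apart for Gria2, Gria3, Gria4 and Grik5.

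The effect of the THY-Tau22 genotype after training was examined by comparing TAU VEH with WT VEH. Grik5 was lower in TAU VEH, and Gria2 and Grik2 were higher. These 3 of 9 genes compare with 14.4% of the 16820 genes tested (3.61% higher and 10.8% lower), and the libraries did not overlap for 6 of the 9 genes against 57.9% of all genes. With the GC and length correction, 0 of the 9 genes and 2.95% of all genes were differentially expressed. In the learning experiment GC dependence separated the WT from the THY-Tau22 libraries. The correction therefore cannot tell a technical shift from a genotype or injection difference that follows GC content.

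Grik5 had 495 and 500.3 CPM in the WT VEH libraries and 338 and 339.6 CPM in the TAU VEH libraries. The libraries of each group lay close together and the groups were far apart. The means were 498 ± 3.53 and 339 ± 1.26 CPM (SD, n = 2 each), and the level in TAU VEH was 0.680 of that in WT VEH, a log2 fold change of -0.56 (SE 0.08, adjusted p = 0.00160 in edgeR's quasi-likelihood test). Leaving out any 1 of the 9 learning libraries left its adjusted p between 0.000445 and 0.0244. Grik5 has the highest exon GC content of the 9 genes, 62.3%, and with the GC and length correction its log2 fold change was -0.17 (adjusted p = 0.209 in edgeR, with values between 1.23e-09 and 0.434 over 10 alternatives).

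Grik2 had 27.4 and 29.9 CPM in WT VEH and 42.9 and 36.5 CPM in TAU VEH. Both TAU VEH libraries lay above both WT VEH libraries and above all 3 WT VEH_HC libraries, which had between 27.6 and 31.4 CPM. The log2 fold change between TAU VEH and WT VEH was 0.48 (SE 0.10, adjusted p = 0.00787 in edgeR's quasi-likelihood test). The corrected value was 0.30 (adjusted p = 0.106 in edgeR), and the call was also lost without WT VEH replicate 1 (adjusted p = 0.0823) or TAU VEH replicate 1 (adjusted p = 0.114), with a range from 1.63e-05 to 0.548 over 10 alternatives.

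Gria2 had 486 and 468 CPM in TAU VEH against 401 and 396 CPM in WT VEH. The groups were apart, and the log2 fold change was 0.26 (SE 0.07, adjusted p = 0.0223 in edgeR's quasi-likelihood test). With the correction it was 0.10 (adjusted p = 0.492 in edgeR). Leaving out any 1 of the 4 libraries compared ended the call, with adjusted p between 0.0745 and 0.178 in edgeR. Grik2, at 40.6%, and Gria2 have a low exon GC content, so the 2 genes that were higher and the gene that was lower lie near the opposite ends of the GC range of the 9 genes.

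Gria1, Gria3 and Gria4 also lay higher in both TAU VEH libraries than in both WT VEH libraries, with log2 fold changes of 0.14, 0.15 and 0.24, and did not pass the limits (adjusted p = 0.251, 0.151 and 0.0808 in edgeR). Gria4 passed in a fit on these groups alone (adjusted p = 0.0294) and without WT VEH_HC replicate 2 (adjusted p = 0.0392 in edgeR, and from 0.00986 to 0.559 over 10 alternatives). These fits called 3399 of 16205 and 2944 of 16704 genes, against 2423 of 16820 with every library. When the libraries were scaled by their size alone, these 3 genes passed as well and 6 of 9 genes were differentially expressed, but so were 3598 of all genes, 2578 higher and 1020 lower, against 608 and 1815 with TMM scaling. On the log2 scale the median over all genes then lay at 0.15, of the same size as the values of Gria1 and Gria3 with TMM scaling. Grik1, Grik3 and Grik4 overlapped between the groups. Grik3 had 55.9 and 44.3 CPM in TAU VEH and Grik4 had 84.8 and 81.3 CPM, all below the 3 WT VEH_HC libraries, which were not tested against them. Over the 9 genes the median was 0.15 on the log2 scale, beside 0.00 over all genes tested.

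Markers of other cells moved here too. In TAU VEH, all 14 choroid plexus markers were lower, 4 of 5 CA1 markers were lower (among them Wfs1, Fibcd1 and Mpped1, with log2 fold changes from -0.92 to -0.70), 2 of 7 CA3 markers were higher (Cpne4 and Pvrl3), and 3 of 6 astrocyte markers were higher (Gfap, Slc1a2 and Aqp4). Of the other lists, 2 of 5 markers of all neurons, 2 of 6 of interneurons, 1 of 5 of the thalamus, 2 of 6 of the neocortex, 1 of 4 of oligodendrocyte precursors and 1 of 6 of microglia were lower, 1 neocortex marker was higher, and 0 passed in edgeR for the dentate gyrus, oligodendrocytes and endothelium. DESeq2 called 2 of 7 dentate gyrus markers higher and 1 of 5 endothelial markers lower. The summed CA1 level was 584 and 619 CPM in TAU VEH and 994 and 1069 CPM in WT VEH, and that of the astrocyte markers lay between 4007 and 4039 CPM against 2959 and 3342 CPM. The part of these differences in the values of Grik5, Grik2 and Gria2 was not tested beyond the choroid plexus score as a covariate, under which 0 of the 9 genes passed (for Grik5 -0.30 on the log2 scale, adjusted p = 0.434 in edgeR). Of all 16820 genes 0 passed under it as well, 2211 of them at an unadjusted p under 0.05.

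**Figure D3:**
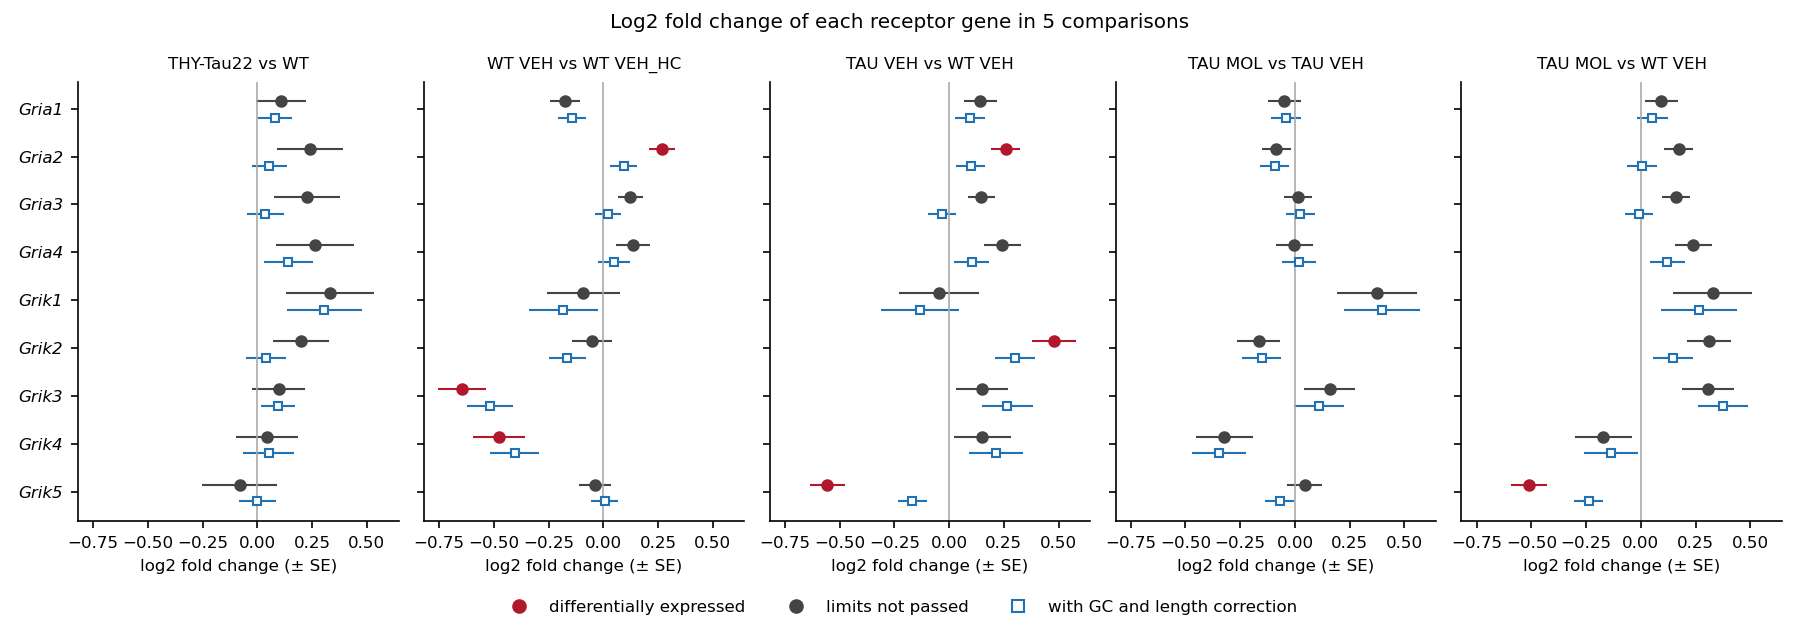
Log2 fold change of each receptor gene (horizontal axis, bars are the standard error) in 5 comparisons, without (circles, red where differentially expressed) and with (open squares) the GC and length correction. Grik5 moves from -0.56 to -0.17 in TAU VEH vs WT VEH with the correction, whereas Grik3 moves from -0.64 to -0.52 in WT VEH vs WT VEH_HC.

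The effect of the CBP and p300 activator was examined by comparing TAU MOL with TAU VEH, which differ in TTK21 on the same vehicle. None of the 9 receptor genes was differentially expressed in edgeR's quasi-likelihood test or in DESeq2, nor was any of the 16820 genes tested in edgeR (0%), while DESeq2 called 54 of 17888 genes and edgeR on these groups alone 60, and 1 receptor gene, Grik4, had an unadjusted p under 0.05. The libraries of 4 of 9 genes did not overlap, against 38.9% of all genes. Grik4 had 84.8 and 81.3 CPM in TAU VEH and 66.1 and 66.7 CPM in TAU MOL. The replicates of each group lay close together, and the log2 fold change was -0.32 (95% confidence interval from -0.61 to -0.04, adjusted p = 0.744 in edgeR, from 0.0259 to 0.993 over 10 alternatives). Of these alternatives it passed in edgeR without a filter on low counts, where 233 of 25933 genes passed. The paper, which used an older version of DESeq2, reports Grik4 among the synapse genes that CSP-TTK21 lowered significantly in THY-Tau22 mice. The DESeq2 fit made here gave Grik4 a log2 fold change of -0.32 (adjusted p = 0.592 in DESeq2). The summed level of 7 CA3 markers was also lower, with 418 and 427 CPM in TAU VEH and 327 and 328 CPM in TAU MOL, and that of 5 CA1 markers was higher, with 584 and 619 CPM in TAU VEH and 851 and 853 CPM in TAU MOL. Their part in the value of Grik4 was not tested.

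Grik1 had the largest positive value of the 9 genes in this comparison, 7.29 and 5.66 CPM in TAU VEH and 9.48 and 7.46 CPM in TAU MOL, a log2 fold change of 0.37 (95% confidence interval from -0.02 to 0.77, adjusted p = 0.817 in edgeR). Gria1 and Gria2 lay slightly lower in both TAU MOL libraries, with log2 fold changes of -0.05 and -0.09. The 95% confidence intervals of the main subunits were narrow, from -0.21 to 0.11 for Gria1, from -0.23 to 0.06 for Gria2 and from -0.14 to 0.22 for Grik5. For Grik2 the interval ran from -0.38 to 0.05 and for Grik3 from -0.10 to 0.42.

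Treated THY-Tau22 mice were also compared with trained WT mice, a comparison that shares its WT VEH libraries with the previous genotype comparison and is therefore no independent repeat of it. Grik5 was lower in TAU MOL than in trained WT mice and the other 8 genes did not pass in edgeR, so 1 of 9 genes compares with 5.63% of all genes (0.612% higher and 5.02% lower). The libraries did not overlap for 8 of 9 genes, all but Grik4, against 52.5% of all genes. Grik5 had 334 and 364 CPM in TAU MOL against 495 and 500.3 CPM in WT VEH, a log2 fold change of -0.51 (SE 0.08, adjusted p = 0.00996 in edgeR's quasi-likelihood test). The 95% confidence interval of the difference between TAU MOL and TAU VEH, from -0.14 to 0.22, holds 0. With the GC and length correction the value was -0.24 (adjusted p = 0.180 in edgeR, where 0.172% of all genes passed), and the call was lost when any 1 of the 4 libraries compared was left out (adjusted p between 0.0671 and 0.110 in edgeR). In those fits 2 or 4 genes passed in all, against 947 with every library.

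Grik2 and Grik3 both had a log2 fold change of 0.31 in TAU MOL against WT VEH (adjusted p = 0.0980 and 0.167 in edgeR). Over 10 alternatives in edgeR and DESeq2 the adjusted p ran from 0.0216 to 0.560 for Grik2 and from 0.0133 to 0.457 for Grik3. Grik3 had 55.6 and 56.6 CPM in TAU MOL, between the trained and the home-cage WT libraries and overlapping neither. DESeq2 called Grik2 (adjusted p = 0.0413) beside Grik5. Gria2, Gria3 and Gria4 had log2 fold changes of 0.17, 0.16 and 0.24, which became 0.01, -0.01 and 0.12 with the correction. Here 9 of 14 choroid plexus, 1 of 5 CA1, 2 of 7 CA3, 1 of 5 pan-neuronal, 1 of 6 neocortex, 1 of 6 microglia and 1 of 5 endothelial markers were lower, and 2 of 6 astrocyte markers were higher. In TAU MOL against TAU VEH 0 markers of these lists passed in edgeR, while DESeq2 called 3 of 7 CA3 markers lower, 1 of 5 CA1 markers higher and 2 of 14 choroid plexus markers higher.

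**Figure D4:**
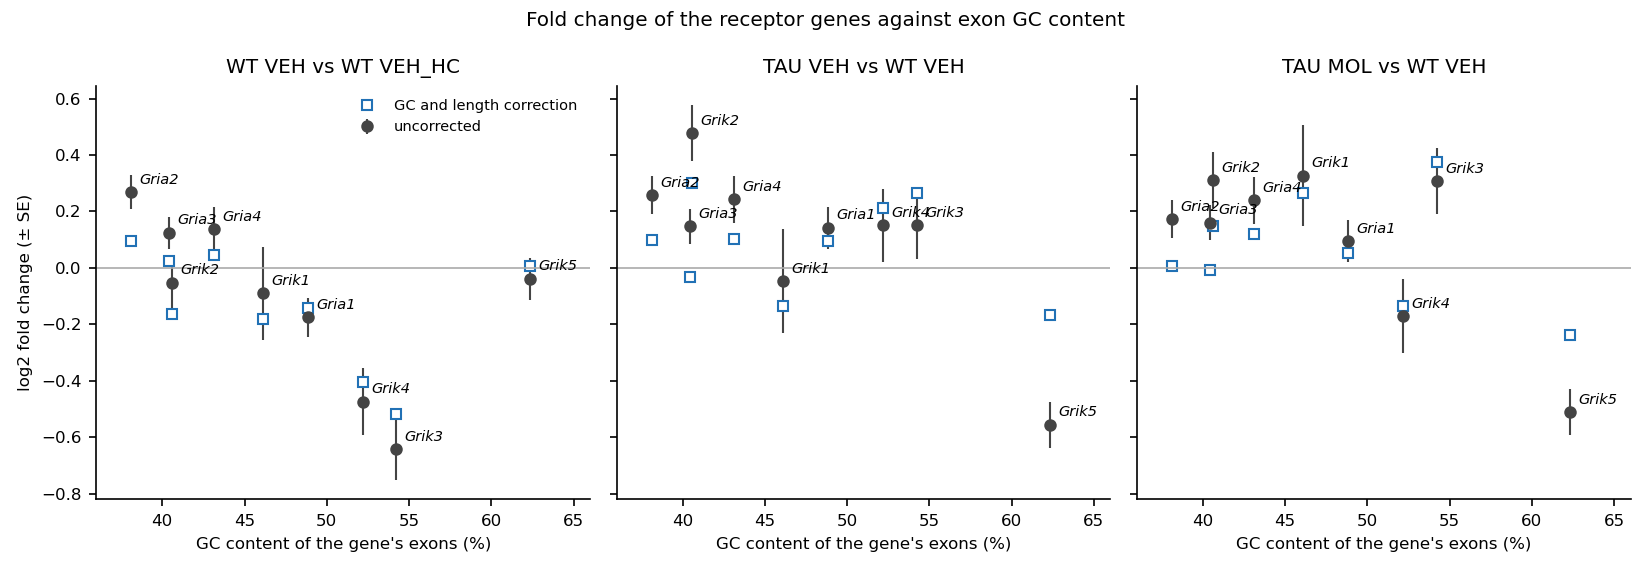
Log2 fold change of the 9 receptor genes (bars are the standard error) against the GC content of their exons in 3 comparisons of the learning experiment, uncorrected (circles) and with the GC and length correction (open squares). In both comparisons of THY-Tau22 with WT VEH mice Grik5, at 62.3% GC, lies lowest before the correction and at -0.17 and -0.24 after it, while with training Grik3 and Grik4 remain the lowest.

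In untrained mice the genotype was examined in the basal libraries. None of the 9 receptor genes was differentially expressed in THY-Tau22 against WT in edgeR's quasi-likelihood test or in DESeq2, and 0 had an unadjusted p under 0.05, beside 0.0245% of the 16324 genes tested (0.00613% higher and 0.0184% lower, and 0.0796% with the GC and length correction). DESeq2 called 41 of 18872 genes, 27 higher and 14 lower. In edgeR 0 genes of the marker lists passed as well, and DESeq2 called 1 choroid plexus and 1 astrocyte marker higher. The libraries of 1 of the 9 genes, Gria1, did not overlap, against 18.5% of all genes, with 967, 971 and 984 CPM in WT and 1042 and 1059 CPM in THY-Tau22 (log2 fold change 0.11, 95% confidence interval from -0.15 to 0.36, and 0.10 without THY-Tau22 replicate 2).

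The 2 THY-Tau22 libraries lay far apart for several genes. Gria2 had 433, 445 and 433 CPM in WT and 425 and 607 CPM in THY-Tau22, Gria4 had 38.0, 34.9 and 40.8 CPM in WT and 35.3 and 55.9 CPM in THY-Tau22, and Grik5 had 363, 301 and 314 CPM in WT and 371 and 245 CPM in THY-Tau22. In all 3 genes replicate 1 lay within or near the WT range and replicate 2 outside it. Gria2 had a log2 fold change of 0.24 with both libraries, of -0.04 without THY-Tau22 replicate 2 and of 0.50 without replicate 1. Grik5 had values of -0.08, 0.19 and -0.39 in the same order. For Gria3, Gria4, Grik1 and Grik2 the log2 fold changes were 0.23, 0.26, 0.33 and 0.20 with both libraries and -0.07, -0.10, 0.04 and 0.05 without replicate 2. For Grik3 and Grik4 they were 0.10 and 0.04 with both and 0.15 and 0.11 without it. In a fit with 1 THY-Tau22 library left, that library is assumed to vary like the WT libraries. With the GC and length correction the values were 0.05 for Gria2 and 0.00 for Grik5. THY-Tau22 replicate 2 also had the highest summed level of the choroid plexus markers, 1326 CPM, against 274 to 442 CPM in the other basal libraries. The part of this in its values was not tested beyond a covariate, under which 0 of the 9 genes and 2 of all 16324 genes passed in edgeR.

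Whether the genotype effect differed between trained and untrained mice was tested in a fit over all 14 libraries, as the effect in TAU VEH against WT VEH minus that in THY-Tau22 against WT. The trained pair also differed from the untrained pair in injection and in experiment, and these cannot be told apart from training. None of the 9 genes passed in edgeR or in DESeq2, beside 0.129% of the 17026 genes tested in edgeR (0.182% with the GC and length correction). DESeq2 called 121 of 16701 genes, 3 higher and 118 lower. In edgeR 0 of the 9 had an unadjusted p under 0.05. Grik5 had the largest difference, -0.45 on the log2 scale (95% confidence interval from -0.90 to 0.01, adjusted p = 0.642 in edgeR), followed by Grik1 with -0.35 and Grik2 with 0.31. The value for Grik5 depended on THY-Tau22 replicate 2 of the basal experiment. It was -0.73 and passed without that library (adjusted p = 0.0193 in edgeR), a fit in which 764 of 17494 genes passed against 22 with all libraries. It was -0.09 without replicate 1 (adjusted p = 0.903 in edgeR). With the GC and length correction it was -0.17. In this fit 7 of 14 choroid plexus markers and 0 of the other markers passed in edgeR, all 7 lower, and DESeq2 called 10 choroid plexus markers and 1 of 5 CA1 markers lower.

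The composition of each receptor family does not depend on the scaling between libraries and was read as each subunit's share of the family's summed CPM per kb. Gria1 made up between 64.3% and 73.1% of the AMPA subunit RNA in the group means, and Gria2 between 19.6% and 27.1%. The home-cage WT mice of the learning experiment had the highest Gria1 share, with 75.0%, 73.4% and 71.0% in the 3 libraries against 66.6% and 68.0% in WT VEH, and the lowest Gria2 share, with 18.1%, 19.5% and 21.1% against 24.9% and 23.9%. The 2 groups did not overlap for either gene. The exact permutation test, 2-sided, gave p = 0.1 for each, the smallest value that 3 against 2 libraries allow, and an adjusted p of 0.556 over the 45 share tests. The ratio of Gria1 to Gria2 was 3.76 ± 0.396 in WT VEH_HC (SD, n = 3) and 2.76 ± 0.114 in WT VEH (SD, n = 2), and lay between 2.41 and 2.61 in the means of the other groups.

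Grik5 made up between 75.5% and 84.9% of the kainate subunit RNA in the group means. Its share was highest in WT VEH, with 85.6% and 84.1%, and lower in TAU VEH, with 75.9% and 78.1%, and in TAU MOL, with 78.2% and 79.6%. No library of these THY-Tau22 groups reached the WT VEH values, but 2 against 2 libraries allow no exact permutation p below 0.333. Grik4, the other high-affinity subunit, made up 8.26% in WT VEH, 12.2% in TAU VEH and 9.75% in TAU MOL. The share of Grik2 was 2.26%, 4.18% and 3.72% in the same groups. The ratio of Grik5 to Grik2 was 37.6 ± 2.05 in WT VEH and 18.5 ± 2.19 in TAU VEH (SD, n = 2 each), 37.2 ± 3.03 in WT VEH_HC (SD, n = 3) and 21.2 ± 0.284 in TAU MOL (SD, n = 2). The WT mice of the basal experiment had a Grik5 share of 78.5% and a ratio of 19.3 ± 3.25 (SD, n = 3), near the values of the trained THY-Tau22 mice, which stand in the other table and were not tested against them. The Grik5 shares of WT VEH_HC, from 79.4% to 83.2%, overlapped those of TAU MOL. Shares compare genes of different GC content within a library, so the differences in GC dependence between libraries reach them too. They also rest on the length of all annotated exons of each gene, which may differ from the transcripts expressed here.

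**Figure D5:**
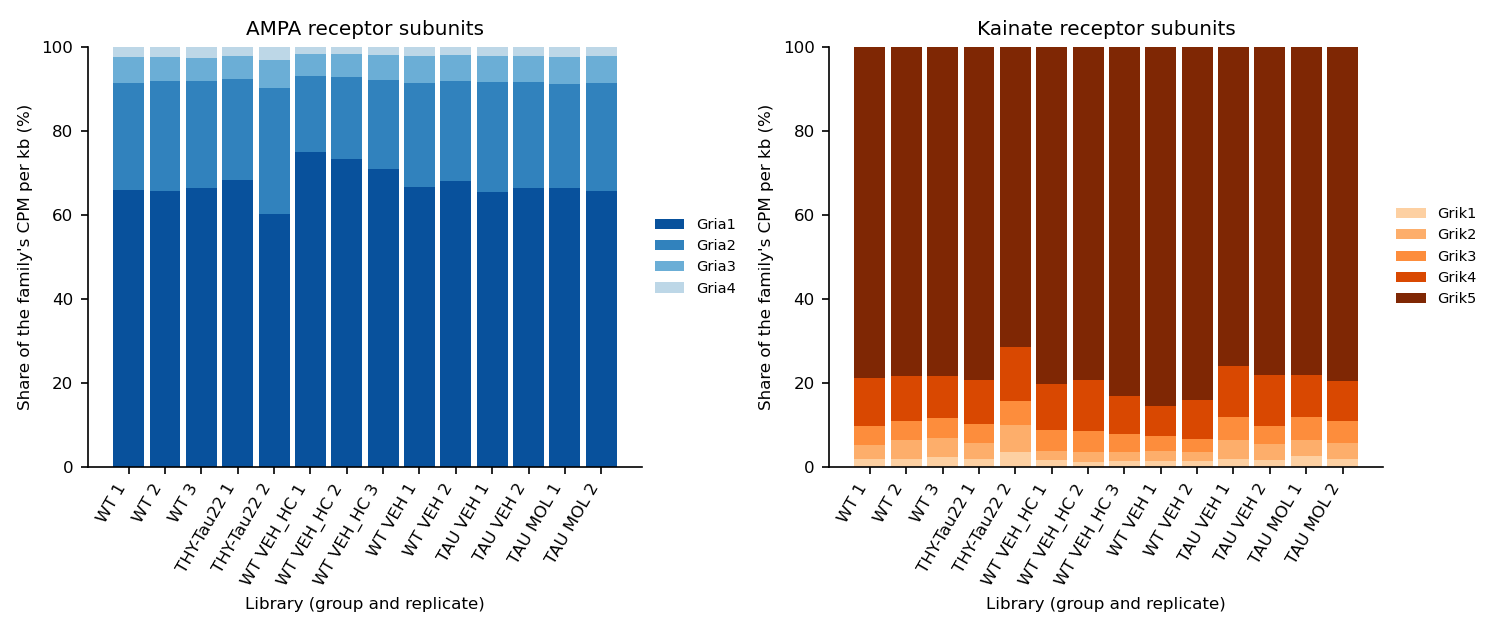
Share of each subunit in the summed CPM per kb of its family, in percent, as stacked bars for all 14 libraries, AMPA subunits on the left and kainate subunits on the right. Gria1 takes more of the AMPA bars in the WT VEH_HC libraries (71.0% to 75.0%), and Grik5 takes most of every kainate bar.

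The proteins that accompany the receptors were followed in 7 lists with 44 genes, of which 43 were tested. With training 1 of the 43 rose and 9 fell, in TAU VEH against WT VEH 4 were higher and 9 lower, in TAU MOL against WT VEH 0 were higher and 7 lower, and in TAU MOL against TAU VEH and in the basal comparison 0 passed in edgeR's quasi-likelihood test. DESeq2 called Neto1 lower in TAU MOL against TAU VEH (log2 fold change -0.41, adjusted p = 0.0103 in DESeq2). Over all genes 5.35% were higher and 3.05% lower with training, 3.61% and 10.8% in TAU VEH against WT VEH, and for TAU MOL the shares were 0.612% and 5.02%. The medians of the 43 genes on the log2 scale were -0.15, -0.01 and -0.04 in these comparisons, beside -0.00, 0.00 and 0.00 over all genes. With the GC and length correction the counts were 0 higher and 6 lower with training, 1 higher and 3 lower in TAU VEH against WT VEH, and 0 in the other comparisons, where 4.60% and 2.95% of all genes passed with training and in TAU VEH.

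With training 2 of 14 AMPA auxiliary subunits fell, Gsg1l (log2 fold change -0.76), a relative of the claudins that slows recovery of the channel from desensitization, and Shisa9 (-0.47), known as CKAMP44 of dentate granule cells. Both also passed with the correction. Among the 8 secreted or transsynaptic organisers 3 fell, C1ql2 (-0.76), which mossy fibres release to gather kainate receptors, and the pentraxins Nptxr (-0.69) and Nptx1 (-0.34), which cluster AMPA receptors. C1ql2 went from 239 ± 51.4 CPM in WT VEH_HC (SD, n = 3) to 141 ± 19.1 CPM in WT VEH (SD, n = 2) and passed with the correction as well, and both pentraxins did not. Of the dentate gyrus markers 2 of 7 also fell, with a median of -0.29 over the list, and their part in the values of Shisa9 and C1ql2 was not tested. In the trafficking and anchoring list 2 of 9 fell, Nsf (-0.33) and Pick1 (-0.27), which bind the tails of AMPA subunits, and with the correction 0 of 9 passed. The editing enzyme Adar fell by 0.26 on the log2 scale. Adarb1, the enzyme that edits the Q/R site of Gria2, had 231 ± 23.8 CPM in WT VEH_HC (SD, n = 3) and 197 ± 1.37 CPM in WT VEH (SD, n = 2), a log2 fold change of -0.23 that did not pass in edgeR (adjusted p = 0.0895) and passed in DESeq2 (adjusted p = 0.0465). The delta receptor gene Grid1 fell (-0.32), and Sacm1l (0.38), an endoplasmic reticulum phosphatase found with AMPA receptor assembly complexes, was the gene that rose. With the correction Grid1 passed (-0.25), and Adar (-0.16) and Sacm1l (0.16) did not. The kainate auxiliary genes Neto1 (-0.27) and Neto2 (0.22) did not pass in edgeR, DESeq2 called Neto1 lower (adjusted p = 0.0230), and with the correction Neto1 (-0.31, adjusted p = 0.0454 in edgeR) and Prrt1 (-0.26, adjusted p = 0.0498), an AMPA auxiliary subunit, did.

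In TAU VEH against WT VEH 6 of 14 AMPA auxiliary subunits were lower and 0 higher, beside 10.8% and 3.61% of all genes, and their median log2 fold change was -0.34. With the correction 2 were lower and 1 higher, with a median of -0.18. The CA1 markers were lower here too, 4 of 5 with a median of -0.70, and their part in these values was not tested. The largest were the TARP Cacng7 (-0.66), the cornichon Cnih2 (-0.58), Prrt1 (-0.58), also called SynDIG4, and the TARP Cacng3 (-0.40). Cnih2, an abundant AMPA auxiliary subunit of hippocampal pyramidal cells, had 1021 ± 1.72 CPM in WT VEH and 682 ± 17.3 CPM in TAU VEH (SD, n = 2 each). Of these 4 genes, Cacng7 and Cacng3 passed with the correction (-0.38 and -0.37), under which Shisa9 was higher (0.59, adjusted p = 0.0247 in edgeR). Neto1, the kainate auxiliary subunit, was higher (0.36), with 70.1 ± 9.18 CPM in WT VEH and 90.0 ± 3.70 CPM in TAU VEH (SD, n = 2 each). Among the 5 assembly genes Frrs1l (0.32) and Sacm1l (0.23) were higher, and Cpt1c (-0.38) and Porcn (-0.34) were lower. Tspan7 (-0.25) was the anchoring gene that fell, and Adarb2 (0.37), an editing enzyme without known activity, the editing gene that rose. Of the genes named since Neto1, Tspan7 passed with the correction (-0.40), and 0 of the assembly, editing and kainate auxiliary genes did. In TAU MOL against WT VEH 5 of 14 AMPA auxiliary subunits were lower, led by Cnih2 (-0.51), Prrt1 (-0.46), Cacng7 (-0.41) and Cacng8 (-0.31), as were the assembly genes Porcn (-0.35) and Cpt1c (-0.33), and 0 of these 7 passed with the correction.

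The genes whose log2 CPM followed each receptor gene most closely over the 9 learning libraries are given as a description, chosen from 12422 genes whose mean count was 100 or more. These libraries fall into groups of 2 or 3 and share their differences in GC dependence. Grik5 was followed by Mast3 (Pearson's r = 0.998) and Bai2 (0.996), whose exons have 60.1% and 62.8% GC beside 62.3% in Grik5, and in the 5 basal libraries r was 0.989 and 0.954. Gria2 was followed by Zbtb1 and Ccdc47 (0.996 each), with 41.2% and 43.3% GC and r of 0.924 and 0.969 in the basal libraries. Gria3 was followed by Npat and Nol8 (0.992 each), with 40.0% and 40.9% GC and basal r of 0.695 and 0.973. Gria4 was followed by Nufip1 and Pcmtd1 (0.990 each), with 44.6% and 38.9% GC and basal r of 0.533 and 0.969. The nearest genes of Grik2 were Rfx3 (0.969) and Slc4a7 (0.967), with 40.3% GC each and basal r of 0.764 and 0.950. For these receptor genes themselves the GC content was 38.1% in Gria2, 40.4% in Gria3, 43.1% in Gria4 and 40.6% in Grik2.

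Grik3 was followed by Sv2c (0.954), a synaptic vesicle protein, and Zscan2 (0.948), and r over the basal libraries was 0.522 and 0.534. Grik4 was followed by Syn2 (0.989), another protein of synaptic vesicles, and Evc2 (0.985), with 0.611 and 0.765 over the basal libraries. Gria1 was followed by Ints7 (0.972) and Rps6kc1 (0.964), of which the latter went the other way in the basal libraries (-0.712). Grik1 was followed by Zfp521 (0.953) and Apol8 (0.895), with values near 0 in the basal libraries. Among the receptor genes themselves, over the 9 learning libraries, Gria2, Gria3 and Gria4 had r between 0.92 and 0.98 with each other, and each had r between -0.87 and -0.83 with Grik5.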

How the data were processed

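Poly-A RNA (unstranded TruSeq v2, single-end reads of 50 bases) was measured in 14 libraries. The authors processed the reads with CASAVA 1.8.2, aligned them to mm9 with TopHat2 2.0.10 and Bowtie2 2.1.0, and counted them per gene with HTSeq 0.5.4p3. The deposited raw counts were tested here. The deposited normalized signal, which the authors made by dividing the counts by 1 factor per library, was not used. From the learning experiment 138 lines without values were left out.

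edgeR 4.0.16 (R 4.3.3; TMM, filterByExpr, quasi-likelihood test, Benjamini-Hochberg adjustment over all genes tested) was fitted to the 5 basal libraries, to the 9 learning libraries and, for the difference between genotype effects, to all 14. GC and length were corrected with a loess fit (span 0.3) per library, entered as offsets. DESeq2 1.42.0, other scalings and filters, a replicate block, a choroid plexus covariate and leaving out each library were alternatives. The fits were tested on simulated data. Figures used matplotlib 3.10.9.

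All 9 receptor genes are named, of each list of accompanying proteins the called genes (at most 4 per comparison, by fold change), and the 2 genes of most similar log2 CPM (prior count 1). Members and lists were chosen with earlier results of these data known. The values of 1 marker gene are not reported here. Sequences and positions come from GENCODE transcripts and annotation of mm9. Receptor genes had from 150 (Grik1) to 53152 (Gria1) counts per library.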

Additional observations from a re-analysis of the deposited data

How the results depend on the processing

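The number of the 9 receptor genes that were differentially expressed depended on the setting. For training it was 3, and it was 1 with the GC and length correction, 0 with the choroid plexus covariate, 1 in a fit on only the groups compared, and 1 to 4 when a library was left out (1 without WT VEH replicate 1, 4 without WT VEH_HC replicate 3). Grik4 reversed with the covariate, to a log2 fold change of 0.46. For TAU VEH against WT VEH it was 3, and it was 6 with library size alone, 0 with the GC and length correction, 0 with the covariate, and 1 to 4 when a library was left out (1 without WT VEH replicate 1, 4 without WT VEH_HC replicate 2). For TAU MOL against TAU VEH it was 0, and 1 without a filter. For TAU MOL against WT VEH it was 1, and it was 2 with DESeq2, 5 with library size alone, 3 without a filter, 0 with the GC and length correction, 0 with the covariate, 2 in a fit on only the groups compared, and 0 to 1 when a library was left out (0 without WT VEH replicate 1). For the difference between genotype effects it was 0, and 0 to 1 when a library was left out (1 without THY-Tau22 replicate 2). The counts over all genes moved too. For training they were 1413, and 773 with the GC and length correction, 0 with the covariate, 310 with only the groups compared, 73 without WT VEH replicate 1, 282 without WT VEH replicate 2, 614 without WT VEH_HC replicate 1, 952 to 2798 without its other replicates, and 793 to 810 without a TAU VEH or TAU MOL library. For TAU VEH against WT VEH they were 2423, and 3598 with library size alone, 497 with the correction, 0 with the covariate, and 915 to 1276 without a WT VEH or TAU VEH library. For TAU MOL against WT VEH they were 947, and 1324 with DESeq2, 1083 with library size alone, 1590 without a filter, 29 with the correction, 2 with the covariate and 1490 with only the groups compared. The cause of these changes was not tested.

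The labels do not say whether the replicate numbers pair the libraries. Deviations of same-numbered libraries correlated at -0.04 to 0.24 in the learning experiment and at -0.16 and -0.065 in the basal one. In groups of 2 libraries the deviations mirror each other, so these few values cannot decide on a pairing. With the replicate block the counts were 4 for training, 4 for TAU VEH against WT VEH, 0 for TAU MOL against TAU VEH, 1 for TAU MOL against WT VEH, and 0 for the basal comparison and the difference between genotype effects. Over all genes the block gave 3000 for training, 2794 for TAU VEH against WT VEH and 1321 for TAU MOL against WT VEH. With the replicate block and the GC and length correction, 2 receptor genes passed for training and 0 in the other comparisons, and over all genes 1523 for training, 710 for TAU VEH against WT VEH and 48 for TAU MOL against WT VEH. In the basal comparison 4 of all genes passed, 37 with the block and 125 without a filter.

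Every receptor gene had at least 150 counts per library. Grik1, with the fewest counts, had standard errors of 0.17 to 0.18 in the learning comparisons.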
